A study of Mus musculus with 4 samples.

Results

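Genes that drive the cell division cycle were followed in late 2-cell mouse embryos, namely Cdk1 and the cyclins Ccna2, Ccnb1, Ccnb2, Ccnb3, Ccnd1, Ccnd2, Ccnd3, Ccne1 and Ccne2. They were chosen by gene symbol and make up 10 of the 47445 gene identifiers in the expression tables, with 1 identifier for each gene. In the embryos injected with siRNA against Uqcc3, 6 of these 10 genes (Ccnb1, Ccnb2, Ccnd2, Ccne1, Ccne2 and Cdk1) had lower values in both libraries than in either control, and 1 (Ccnd3) had higher values. The same held for 30.0% of all tested genes (lower) and 8.60% (higher), and for 41.6% (lower) of those with a mean of at least 20 FPKM. Ccnd3 reached the level needed for testing through the siRNA libraries alone, so a higher value was a condition of its being tested. None of the 10 passed the test over all genes, in which 0 of 12390 tested genes passed. Spread between the siRNA libraries was wide, and among the 10 it was widest for Ccnd3, Ccnb2, Ccna2 and Ccnb1. The median gap of the 10 was 1.15 on the log2 scale, against 1.28 for all tested genes.

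Cyclins are regulatory subunits that activate cyclin-dependent kinases and give them their substrates and timing. D-type cyclins couple growth signals to entry into the cycle, E-type cyclins start DNA replication, cyclin A2 acts in S phase and G2, and B-type cyclins with Cdk1 drive mitosis and, in oocytes, meiosis. Oocytes store cyclin B transcripts and regulate them through the length of their poly(A) tail, and the embryo replaces such stored transcripts with its own as its genome becomes active. The library primer here was oligo(dT), so transcript amount and tail length cannot be told apart in these values, and neither can fewer cells with a transcript and less transcript per cell.

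The embryos were C57BL/6N, from female mice 8 weeks old. The Uqcc3 group (2 libraries) was injected with an siRNA against Uqcc3, an assembly factor of mitochondrial complex III, at 5 µM and 8 hpi. Per the labels' protocols, the control group (2 libraries) received a negative-control siRNA at that dose and time, while its treatment label reads "none" and the design text calls the embryos normal. Only injected embryos with normal morphology were collected. The labels do not say how many embryos a library holds or whether libraries came from separate injection days, so the spread between libraries may be technical. Titles end in a code that differs by group and whose meaning is not stated, and a batch it might mark cannot be told apart from the treatment. The libraries are called control 1, control 2, siRNA 1 and siRNA 2 here, numbered in accession order.

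Depth was estimated from genes with a single transcript, and it was lower with siRNA (11.1 to 11.5, against 16.1 to 18.1 for the controls, in units of 1e6 fragments). The targeted transcript, Uqcc3, had 147 and 211 FPKM (fragments per unit of transcript length and of library size) in the controls against 23.7 and 19.8 FPKM with siRNA. The second siRNA library stood apart from the rest: its correlation across genes with any other was 0.624 to 0.651, while each other library reached at least 0.872 with another. It also had fewer genes at 1 FPKM or more, 9771 against 11818 to 12202. Genes of the mitochondrial genome took 28.0% of summed FPKM in siRNA 1 and 16.6% to 18.0% in the other libraries. Their part in the results was not tested. Defining transcripts of the oocyte and the 2-cell embryo were present. The 6 oocyte markers summed to 1174 to 2024 FPKM in every library. Of the 9 listed 2-cell markers 8 were in the tables; they summed to 1119 and 1412 FPKM in the controls, 682 FPKM in siRNA 1 and 188 FPKM in siRNA 2. Listed markers of cumulus cells, sperm, blood and blastocyst summed to at most 25.8 FPKM in any library, with Fshr, Hbb-bs, Alas2, Cdx2, Krt8 and Sox17 at 0 in all 4. The part of the 2-cell marker difference in the results below was not tested.

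FPKM is scaled to transcript length, so values were set side by side between genes. With the oligo(dT) primer, differences in tail length between genes cannot be told apart from differences in amount. Reads of Ccnb1 can also be split among its pseudogene copies. The order below is therefore one of FPKM. In the controls the order of mean level was Ccnb1, Cdk1, Ccna2, Ccne1, Ccne2, Ccnb2, Ccnd2, Ccnd1, Ccnb3 and Ccnd3, from 516 ± 112 FPKM (SD, n = 2) for Ccnb1 to 0.224 ± 0.143 FPKM (SD, n = 2) for Ccnd3. Neighbours in this order whose control values overlapped were Ccnb1 with Cdk1, and Ccnd1 with Ccnb3. The mitotic genes Ccnb1 and Cdk1 ranked 136 and 162 among all genes in control 1 and 196 and 176 in control 2. D-type cyclins and Ccnb3 lay near or below 10 FPKM in the controls. By FPKM the late 2-cell controls thus held high values of Ccna2, Ccnb1, the E-type cyclins and Cdk1, and low values of the D type.

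**Figure D1:**
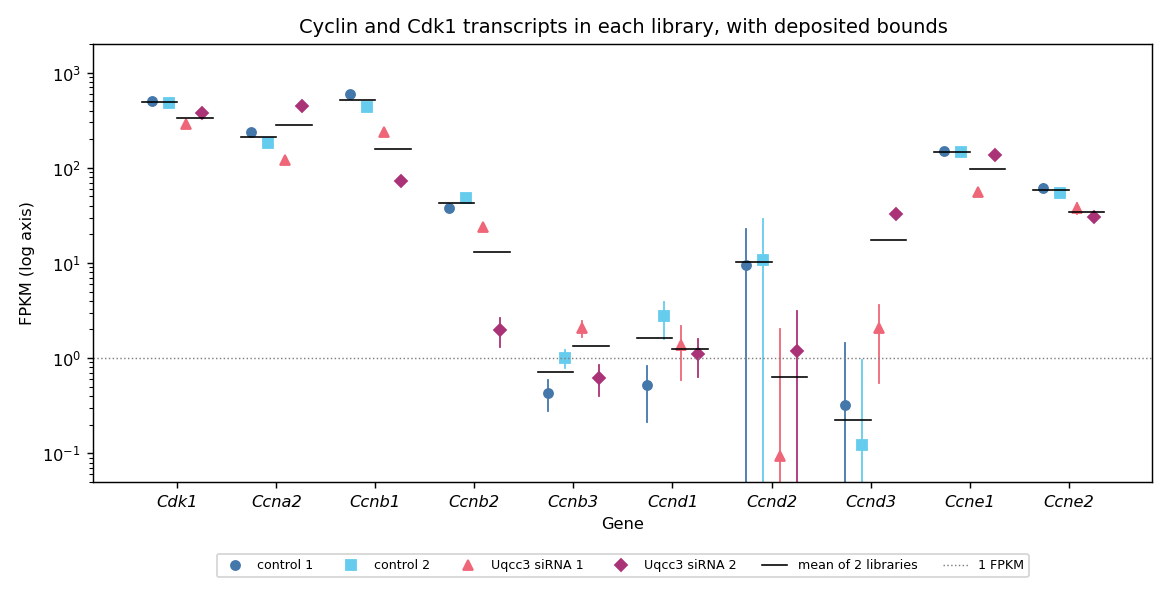
FPKM of Cdk1 and the 9 cyclins (log axis) in the 4 libraries; vertical lines are the deposited lower and upper bounds (lines that reach the lower edge go on to 0), black bars are group means, and the dotted line marks 1 FPKM. Ccnb1 and Cdk1 lead in the controls, Ccnb2 is lowest in siRNA 2 at 1.97 FPKM, and the bounds of Ccnd2 reach 0 in all 4 libraries.

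The catalytic partner, Cdk1 (ENSMUSG00000019942.12), lies on chromosome 10 from 69336635 to 69352938 in mm10, on the minus strand, and GENCODE M21 gives it 7 transcripts. Control 1 and control 2 held 508 and 478 FPKM of Cdk1, siRNA 1 held 285 FPKM and siRNA 2 held 380 FPKM. Both siRNA libraries were below both controls, and the siRNA mean was 67.5% of the control mean. The fitted log2 fold change was -0.58 (SE 0.57) on the log2(FPKM + 1) scale, and limma gave an adjusted p of 0.818. All 12390 tested genes had a median difference of -0.39 on this scale, so Cdk1 lay -0.19 from that median. With quantile normalization of the libraries its difference was 0.083, of opposite sign. Cdk1 ranked 210 among all genes in siRNA 1 and 120 in siRNA 2, so it stayed among the most abundant transcripts of every library.

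Among 2956 other tested genes with a mean of at least 20 FPKM, leaving out predicted-gene and clone names, the 4 whose pattern over the 4 libraries lay closest to that of Cdk1, which had the highest mean of the 10 genes over the 4 libraries, were Grsf1, Nucb2, Sp110 and Syf2. Their Euclidean distances from Cdk1, on centred log2(FPKM + 1) values, were 0.11, 0.14, 0.16 and 0.16. Grsf1, which encodes an RNA-binding protein of mitochondria, had 28.1 and 29.3 FPKM in the controls against 16.5 and 22.3 FPKM with siRNA. No cyclin was that close. Ccne2 and Ccne1 were nearest, at 0.55 and 0.65, with 309 and 462 of those genes closer, and Ccnb1 and Ccnb2 lay at 2.04 and 3.05.

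Cyclin B1 (Ccnb1, ENSMUSG00000041431.16), the main mitotic partner of Cdk1, lies on chromosome 13 from 100778650 to 100786570 in mm10, on the minus strand. Control 1 held 595 FPKM, control 2 held 438 FPKM, siRNA 1 held 240 FPKM and siRNA 2 held 72.7 FPKM. The fragments behind these values, as implied by the deposited bounds, numbered 3723, 3868, 2217 and 1324. They are not scaled to library size, and depth was lower with siRNA, as given above. Relative to depth, they differed less between the groups than FPKM did, and the cause was not tested. In FPKM both siRNA libraries were below both controls, and siRNA 2 was the lowest by far. The group means were 516 ± 112 FPKM (SD, n = 2) and 156 ± 118 FPKM (SD, n = 2), so the siRNA mean was 30.2% of the control mean. The log2 fold change was -1.94 (SE 0.72), with an unadjusted p of 0.028 and an adjusted p of 0.745 in limma. It was -1.09 without siRNA 2 and -2.79 without siRNA 1. In that last fit, which sets siRNA 2 alone against the controls, limma gave an adjusted p of 0.0229. Over the 12 alternatives limma's adjusted p of Ccnb1 and of Ccnb2 ranged from 0.0229 to 0.9998.

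Ccnb1 has pseudogene copies, so its reads can be split among them and its values are uncertain to that extent. Its longest coding transcript matched 7 GENCODE M21 pseudogenes at 86.2% to 99.2% identity over 383 to 1294 bases. Of these, the names Gm12856 and Gm4870 were found in the tables, and Gm4870 had at most 0.270 FPKM in any library. Gm12856, 98.1% identical over 1294 bases, had 32.1 and 28.1 FPKM in the controls against 15.5 and 1.30 FPKM with siRNA. Adding it to Ccnb1 gave a log2 difference of -1.97, close to that of Ccnb1 alone.

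Cyclin B2 (Ccnb2, ENSMUSG00000032218.6), the second mitotic B-type cyclin, lies on chromosome 9 from 70407689 to 70421554 in mm10, on the minus strand, with 1 transcript of 9 exons in GENCODE M21. Control 1 held 38.1 FPKM, control 2 held 48.2 FPKM, siRNA 1 held 24.1 FPKM and siRNA 2 held 1.97 FPKM. Those values rest on 939.9, 1340, 418 and 34.2 implied fragments. Both siRNA libraries were below both controls, and siRNA 2 was far below siRNA 1. The log2 fold change was -2.34 (SE 1.08), with an unadjusted p of 0.0624 and an adjusted p of 0.745 in limma. It was -0.80 without siRNA 2 and -3.89 without siRNA 1, where limma gave an adjusted p of 0.0229.

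Cyclin B3 (Ccnb3, ENSMUSG00000051592.14, chromosome X from 6979652 to 7041619, minus strand), which acts in female meiosis, was scarce. It had 0.430 and 1.01 FPKM in the controls against 2.06 and 0.619 FPKM with siRNA, and the groups overlapped. Its log2 fold change was 0.39 (SE 0.74, limma adjusted p = 0.912), and the sign turned, to -0.066, without siRNA 1.

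Within each library the B-type cyclins kept Ccnb1 as the main transcript. Of summed B-type FPKM it made up 93.9% and 89.9% in the controls, and 90.1% and 96.6% with siRNA. The siRNA mean minus the control mean was 1.45 percentage points, with an exact two-sided permutation p of 0.667. With 2 libraries against 2 this test cannot give a p below 0.333. The direction turned when control 2 or siRNA 2 was left out (-0.56 and -1.76 points). Ccnb3 took 0.0678% and 0.207% of B-type FPKM in the controls and 0.774% and 0.822% in the siRNA libraries.

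Promoters of Ccnb1, Ccnb2 and Cdk1 are shown because these genes act together in mitosis and all stood below both controls in FPKM. Ccne1 is added as a cyclin of another class that also stood below. Under some scalings between libraries, given further below, Cdk1 and Ccne1 overlapped the controls. The entries not shown are that of Ccnb3, which held 1 E2F core (TTCGCGC), and those of Ccnd3. For Ccnd3 the window at chr17:47504801-47505050 held no match, and the window at chr17:47593217-47593466 held 1 CCAAT box. Each sequence is the 250 bases before the RefSeq start site (GRCm38.p6, minus strand of the chromosome, 5′ to 3′ along the gene), and 6 of the 10 genes had an entry. The regions are chr13:100786487-100786736 for Ccnb1, chr9:70421555-70421804 for Ccnb2, chr10:69352913-69353162 for Cdk1 and chr7:38107491-38107740 for Ccne1. Capitals mark matches on either strand to the CCAAT box (CCAAT), the cell cycle genes homology region or CHR (TTTGAA or TTCGAA), E2F cores (TTCGCGC or TTGGCGC) and the E-box (CACGTG).
Ccnb1: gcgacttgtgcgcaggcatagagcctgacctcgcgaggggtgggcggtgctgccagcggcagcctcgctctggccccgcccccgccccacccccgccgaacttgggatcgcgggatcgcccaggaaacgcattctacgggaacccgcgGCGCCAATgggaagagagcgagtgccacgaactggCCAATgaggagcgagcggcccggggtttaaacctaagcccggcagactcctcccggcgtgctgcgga
Ccnb2: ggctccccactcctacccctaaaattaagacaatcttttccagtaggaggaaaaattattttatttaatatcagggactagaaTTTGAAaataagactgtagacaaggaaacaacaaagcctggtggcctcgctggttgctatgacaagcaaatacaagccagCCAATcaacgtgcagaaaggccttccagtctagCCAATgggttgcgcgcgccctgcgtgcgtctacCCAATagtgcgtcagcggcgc
Cdk1: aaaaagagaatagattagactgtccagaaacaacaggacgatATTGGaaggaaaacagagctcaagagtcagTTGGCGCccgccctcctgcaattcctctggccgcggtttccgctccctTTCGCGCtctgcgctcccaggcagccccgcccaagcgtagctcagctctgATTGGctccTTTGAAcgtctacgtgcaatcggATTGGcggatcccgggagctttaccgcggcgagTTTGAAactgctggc
Ccne1: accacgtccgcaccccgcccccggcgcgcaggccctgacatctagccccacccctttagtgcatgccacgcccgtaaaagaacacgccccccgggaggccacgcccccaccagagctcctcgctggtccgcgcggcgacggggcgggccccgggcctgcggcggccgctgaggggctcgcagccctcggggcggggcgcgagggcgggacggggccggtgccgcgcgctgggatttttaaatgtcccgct

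The CCAAT box, bound by NF-Y in many mitotic promoters, occurred 2 times before Ccnb1, 3 times before Ccnb2 and 3 times before Cdk1. Of 32851 promoter windows of the same length, 33.8% held at least 1. In Ccnb1 the boxes began 99 and 67 bases before the start site, 32 bases apart. In Ccnb2 they began 87, 54 and 21 bases before it, with both gaps of 33 bases, and in Cdk1 a pair on the opposite strand lay 80 and 48 bases before it, again 32 apart. A pair of CCAAT boxes on 1 strand with starts 31 to 34 bases apart, a feature chosen after these sequences were read, was present in 0.813% of all windows. Cdk1 also held TTTGAA 15 and 71 bases before the start and both E2F cores, Ccnb2 held TTTGAA at 167 bases, and Ccnb1 held TTGGCGC on the opposite strand, overlapping its farther CCAAT box. Of all windows, 16.0% held TTTGAA. The E2F core TTCGCGC was present in 1.28% of them, and the variant TTGGCGC in 1.97%. None of the searched motifs was in the Ccne1 window, where only these letters in this window were searched.

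**Figure D2:**
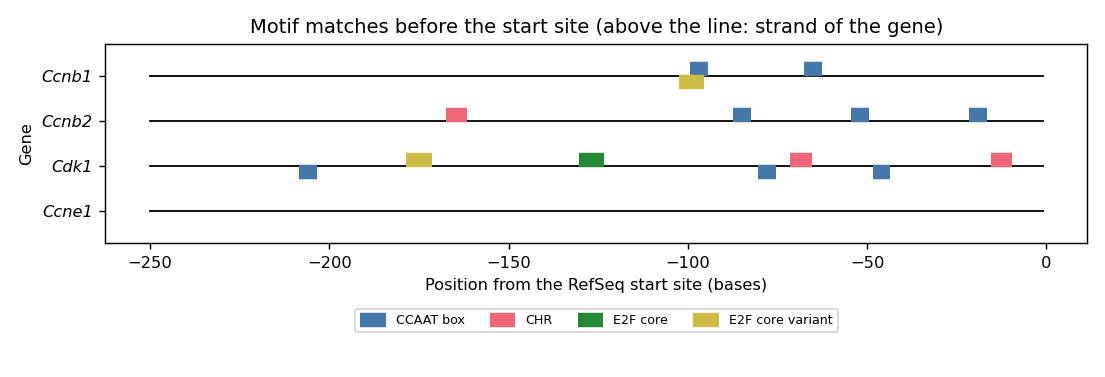
Motif matches in the 250 bases before the RefSeq start site of 4 genes; the x axis is the distance from the start site in bases, and blocks above or below a line are matches on the gene's own or the opposite strand. Ccnb1, Ccnb2 and Cdk1 each hold CCAAT boxes spaced 32 or 33 bases apart, and Ccne1 holds no match.

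Cyclin A2 (Ccna2, ENSMUSG00000027715.9), which acts in S phase and before mitosis, lies on chromosome 3 from 36564865 to 36572150 in mm10, on the minus strand. Control 1 held 240 FPKM, control 2 held 183 FPKM, siRNA 1 held 121 FPKM and siRNA 2 held 443 FPKM. One siRNA library was below and the other above the controls, so the groups overlapped. The log2 fold change was 0.15 (SE 0.75, limma adjusted p = 0.974). It was -0.79 without siRNA 2, 1.08 without siRNA 1 and -0.049 without control 2. Exosc9, which overlaps Ccna2 on the opposite strand, had 28.6 and 16.2 FPKM in the controls against 8.92 and 0.0483 FPKM with siRNA. The protocols do not say that libraries kept strand, so reads of the shared part cannot be told apart.

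The E-type cyclins, which activate Cdk2 at the start of DNA replication, both stood below both controls. Cyclin E1 (Ccne1, ENSMUSG00000002068.16, chromosome 7 from 38097984 to 38107534, minus strand) had 151 and 145 FPKM in the controls, 55.1 FPKM in siRNA 1 and 137 FPKM in siRNA 2. Its difference thus came mainly from siRNA 1. The log2 fold change was -0.76 (SE 0.67, limma adjusted p = 0.805), -1.41 without siRNA 2 and -0.11 without siRNA 1. Under the 3 scalings between libraries it was -0.37 to -0.24.

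Cyclin E2 (Ccne2, ENSMUSG00000028212.16, chromosome 4 from 11191351 to 11204779, plus strand) had 61.9 and 54.7 FPKM in the controls against 37.8 and 30.3 FPKM with siRNA. Among the 7 genes whose groups did not overlap, it had the smallest gap between the siRNA libraries, 0.31 on the log2 scale against 0.18 between the controls. Its log2 fold change was -0.76 (SE 0.65, limma adjusted p = 0.799), -0.61 without siRNA 2 and -0.92 without siRNA 1. Under the 3 scalings it was -0.40 to -0.34. Ints8, which overlaps Ccne2 on the opposite strand, had 7.88 and 7.15 FPKM in the controls against 6.33 and 36.2 FPKM with siRNA. Ccne1 made up 70.9% and 72.6% of E-type FPKM in the controls and 59.3% and 81.9% in the siRNA libraries, so the siRNA libraries lay on either side of the controls. The siRNA minus control difference was -1.16 points (exact two-sided permutation p = 1, where the smallest possible is 0.333), and it was 10.2 points without siRNA 1.

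D-type cyclins activate Cdk4 and Cdk6 and act upstream of the retinoblastoma protein. Cyclin D2 (Ccnd2, ENSMUSG00000000184.12, chromosome 6 from 127125162 to 127152193, minus strand) had 9.53 and 10.8 FPKM in the controls, 0.0941 FPKM in siRNA 1 and 1.19 FPKM in siRNA 2. Both siRNA libraries were below both controls. The deposited lower bound was 0 in all 4 libraries and the upper bounds were 22.9, 28.8, 2.00 and 3.13 FPKM, so the bounds of the groups overlapped. The log2 fold change was -2.85 (SE 0.97), with an unadjusted p of 0.0189, the smallest of the 10 genes, and an adjusted p of 0.745 in limma. Gm43126, an antisense gene that overlaps Ccnd2, had 0.863 and 2.48 FPKM in the controls and was at or near 0 with siRNA.

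Cyclin D3 (Ccnd3, ENSMUSG00000034165.16, chromosome 17 from 47505051 to 47599691, plus strand, 21 transcripts in GENCODE M21) was the gene that stood above both controls. Control 1 held 0.325 FPKM, control 2 held 0.123 FPKM, siRNA 1 held 2.08 FPKM and siRNA 2 held 32.8 FPKM. The bounds were 0 to 1.43 and 0 to 0.959 FPKM in the controls, 0.550 to 3.60 FPKM in siRNA 1 and 29.7 to 35.8 FPKM in siRNA 2. Only the last of these is far from the others. The log2 fold change was 3.06 (SE 1.26), with an unadjusted p of 0.0414 and an adjusted p of 0.745 in limma. It was 1.33 without siRNA 2, and 4.79 without siRNA 1, where limma gave an adjusted p of 0.0282 (0.0282 to 0.9998 over the 11 alternatives that could be fitted). Ccnd3 reached the level filter through the siRNA libraries alone, so a higher value with siRNA was a condition of its being tested. Bysl, which overlaps it on the opposite strand, had 1.97 and 3.17 FPKM in the controls against 1.17 and 4.84 FPKM with siRNA, and the pseudogene Ccnd3-ps was listed at 0 in all 4.

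Cyclin D1 (Ccnd1, ENSMUSG00000070348.5, chromosome 7 from 144929931 to 144939925, minus strand) had 0.520 and 2.77 FPKM in the controls against 1.38 and 1.12 FPKM with siRNA, inside the range of the controls. Its log2 fold change was -0.093 (SE 0.83, limma adjusted p = 0.988), and the sign turned with each of 3 scalings between libraries (0.10 to 0.32). Oraov1, which overlaps it on the opposite strand, had 19.8 and 26.7 FPKM in the controls against 12.3 and 0.794 FPKM with siRNA. Within the D type the transcript with the highest FPKM differed between groups. Ccnd2 made up 91.9% and 78.9% of D-type FPKM in the controls and 2.65% and 3.38% in the siRNA libraries. Ccnd3 made up 3.13% and 0.892% in the controls and 58.5% and 93.4% in the siRNA libraries. For Ccnd3 the siRNA minus control difference was 74.0 points, with an exact two-sided permutation p of 0.333, the smallest this design allows. The gene tested in each family was the one with the highest mean over the 4 libraries. Ccnd3 was that gene through its 32.8 FPKM in siRNA 2, so the direction was largely set by this choice. The test thus gives no support for a difference. The shares carry the wide bounds given above. The lower bound of Ccnd2 was 0 in both controls, so its lead there was not resolved. In siRNA 1 the bounds of Ccnd1 (0.585 to 2.17 FPKM) and Ccnd3 (0.550 to 3.60 FPKM) overlapped, so their order was not resolved either.

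**Figure D3:**
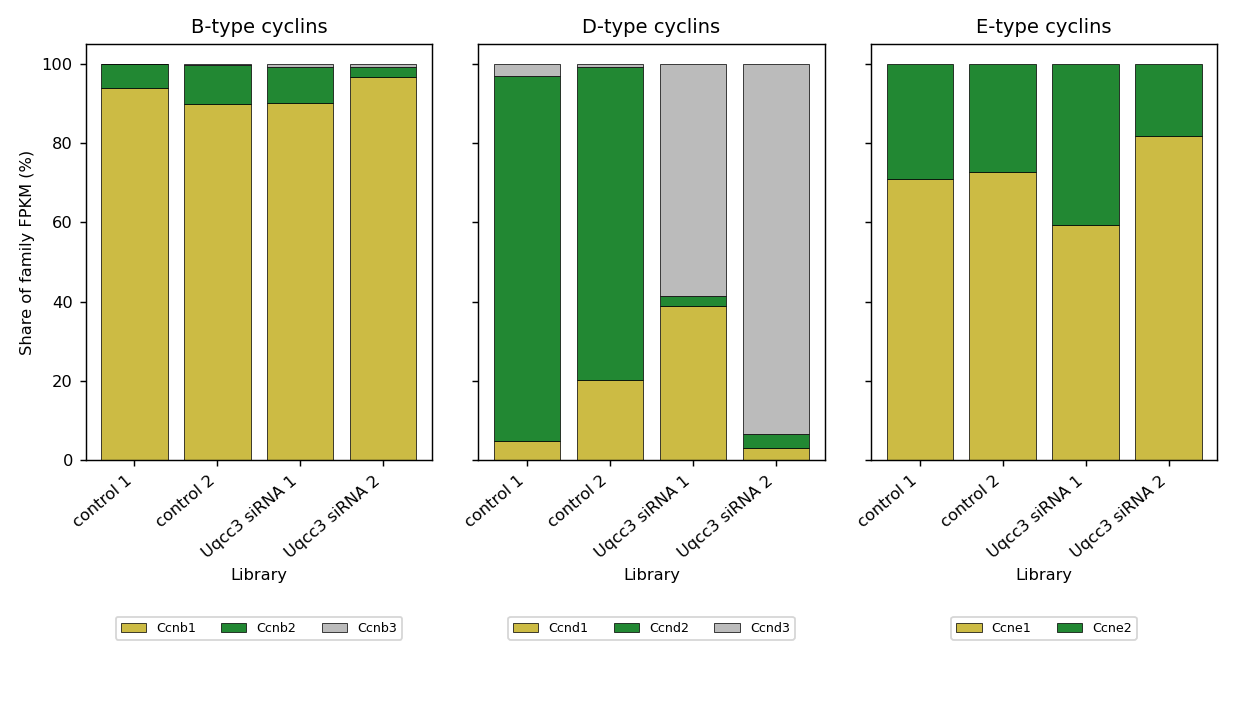
Share of summed FPKM (%) taken by each member of the B-, D- and E-type cyclins in the 4 libraries. Ccnb1 is the main B-type transcript in every library (89.9% to 96.6%). By FPKM, Ccnd2 has the largest D-type share in the controls and Ccnd3 in the siRNA libraries. The deposited bounds do not resolve this order in the controls, nor in the siRNA library with the lower Ccnd3 share.

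In limma 0 of the 10 genes passed an adjusted p of 0.05, as did 0 of all 12390 tested genes (percent called 0; 738 genes had an unadjusted p under 0.05). An unadjusted p under 0.05 was reached by 3 of the 10, against 5.96% of all tested genes. Of these, Ccnb1 and Ccnd2 were lower, as were 5.21% of all tested genes at that threshold, and Ccnd3 was higher, as were 0.743%. Because Ccnd3 reached the level filter through the siRNA libraries alone, its place among the higher genes in this paragraph gives no support. With siRNA, 6 of the 10 had values below either control in both libraries, against 30.0% of all tested genes, and 1 had values above, against 8.60%. Scaling between libraries changed these counts: 4 below and 1 above as TPM (21.4% and 13.2% of all tested genes), 5 and 1 with median-of-ratios size factors (19.8% and 16.0%), and 4 and 2 with quantile normalization (18.7% and 16.5%). Ccnb1, Ccnb2, Ccnd2 and Ccne2 were below and Ccnd3 above under each of the 3, Ccne1 overlapped the controls under each, and Cdk1 overlapped them as TPM and after quantile normalization. Of the 6 genes with a mean of at least 20 FPKM, 5 stood below, where 41.6% of the 3493 tested genes at that level did, and 0 stood above, where 5.53% did. The median log2 difference of the 10 genes was -0.67, against -0.39 for all tested genes and -0.65 for those with a mean of at least 20 FPKM. Relative to the median of all tested genes, Ccnd2, Ccnb2 and Ccnb1 lay at -2.46, -1.96 and -1.55, Ccne2 and Ccne1 at -0.38 and -0.37, and Ccnd3 at 3.45. Without siRNA 1, which leaves siRNA 2 alone against the controls, 3 of the 10 (Ccnb1, Ccnb2 and Ccnd3) passed in limma, against 11.9% of all tested genes. Ccnb1 and Ccnb2 were lower there, as were 9.68% of all tested genes, and Ccnd3 was higher, as were 2.24%. Leaving out any other library gave 0 calls among the 10 and over all genes.

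Each siRNA library was then set against the mean of the controls. In siRNA 1, 8 of the 10 genes were lower, as were 63.7% of all tested genes. The median there was -0.79, against -0.30 for all tested genes. Ccnd2, Ccne1 and Ccnb1 were lowest there, at -3.35, -1.41 and -1.09, and Cdk1, Ccna2 and Ccnb2 lay close together at -0.79, -0.79 and -0.80. In siRNA 2, 8 of the 10 were also lower, as were 60.8% of all tested genes. The median of the 10 was -0.28 in this library, less negative than the -0.57 of all tested genes. Ccnb2, Ccnb1 and Ccnd2 were lowest there, at -3.89, -2.79 and -2.35, while Ccna2 and Ccnd3 stood at 1.08 and 4.79. The gap between siRNA 1 and siRNA 2 exceeded that between the controls in 9 of the 10 genes, all but Ccnd1, and in 69.9% of all tested genes. The median gap over the 10 genes was 1.15 between the siRNA libraries and 0.28 between the controls on the log2 scale, and over all tested genes it was 1.28 and 0.60.

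**Figure D4:**
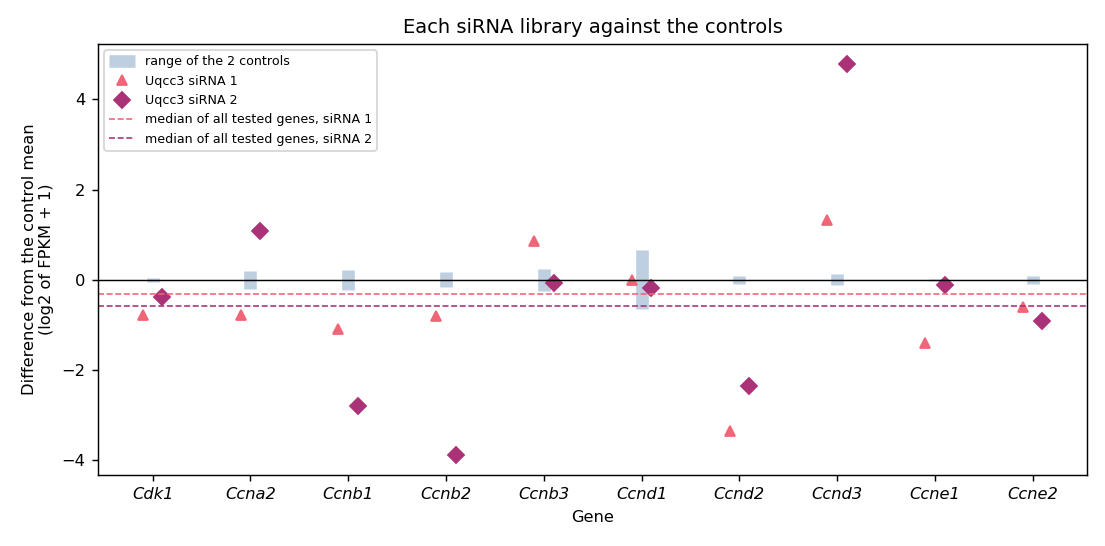
Difference of each siRNA library from the control mean in log2(FPKM + 1) for the 10 genes; blue bars span the controls around their mean and dashed lines are the medians of all tested genes (-0.30 and -0.57). Ccnb1, Ccnb2 and Ccnd2 lie below the control range in both siRNA libraries, Ccna2 lies on opposite sides in them, and Ccnd3 lies above in both.

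The wider cyclin-CDK pathway was described with 7 lists holding 90 genes, of which 86 were tested. None of the 86 passed an adjusted p of 0.05 in limma, 3 had an unadjusted p under 0.05, against 5.96% of all tested genes, 23 had lower values in each siRNA library than in either control, and 10 had higher. As shares of the lists these were close to those of all tested genes, 30.0% lower and 8.60% higher, which also serve as the background for each list below. Those with an unadjusted p under 0.05, named after their values were seen, were Ube2s and E2f6 (lower) and Ccno (higher). E2f6 reached the level filter through the controls alone, so a lower value with siRNA was a condition of its being tested. The median log2 difference of the 86 was -0.23, against -0.39 for all tested genes. The largest levels were those of Cks1b and Cks2, small subunits that dock on Cdk1. Cks1b had 2254 and 2588 FPKM in the controls against 2379 and 578 FPKM with siRNA, and Cks2 had 2114 and 2459 FPKM against 4298 and 479 FPKM. Both were low in siRNA 2 alone. Mnat1, which stabilises the CDK-activating kinase, had 30.7 and 8.72 FPKM in the controls against 8.59 and 20.7 FPKM with siRNA. Of the 8 genes in this list of kinase partners, 2 stood below both controls and 0 above.

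Genes that switch Cdk1 on and off by phosphorylation, and the phosphatase that opposes it, had the lowest median of the 7 lists, -0.94. Set against the control mean, the list's median was -0.36 in siRNA 1 and -1.09 in siRNA 2. For all tested genes these medians were -0.30 and -0.57. Of 13 tested, 7 had lower values in each siRNA library than in either control and 0 had higher, with 0 past an unadjusted p of 0.05, against 30.0%, 8.60% and 5.96% of all tested genes. Wee2, the oocyte kinase that inhibits Cdk1, had 184 and 110 FPKM in the controls against 112 and 57.2 FPKM with siRNA. Aurka, a mitotic kinase, had 123 and 121 FPKM against 49.1 and 67.5 FPKM, below in both. Arpp19, an inhibitor of that phosphatase, had 115 and 67.0 FPKM against 71.2 and 12.7 FPKM.

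The anaphase-promoting complex and its partners, which mark B-type and A-type cyclins for destruction, had a median of -0.55, with 7 of 20 below both controls and 2 above, shares close to the 30.0% and 8.60% of all tested genes. Ube2c, the ubiquitin-conjugating enzyme of the complex, had 326 and 312 FPKM in the controls against 159 and 230 FPKM with siRNA, and the subunit Anapc15 had 274 and 277 FPKM against 128 and 145 FPKM. Both genes were below in both libraries. The subunit Anapc16 had 224 and 95.5 FPKM against 88.5 and 122 FPKM, with overlap. Ube2s, which extends the ubiquitin chains, had 104 and 153 FPKM against 47.6 and 10.2 FPKM (log2 fold change -2.44, SE 0.84, limma adjusted p = 0.745).

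Ubiquitin ligase genes that act on E- and D-type cyclins and on CDK inhibitors had a median of -0.54, with 1 of 7 below both controls and 0 above. Cul1, the scaffold of these ligases, had 806 and 514 FPKM in the controls against 784 and 1201 FPKM with siRNA, and its adaptor Skp1a had 325 and 299 FPKM against 301 and 118 FPKM. CDK inhibitors had a median of -0.053 over 5 tested of 7, with 1 below and 1 above. The one above, Cdkn1b, reached the level filter through the siRNA libraries alone, so a higher value with siRNA was a condition of its being tested. Cdkn1a, the p21 inhibitor, had 88.2 and 105 FPKM against 72.5 and 12.9 FPKM, and Cdkn1c had 15.4 and 21.8 FPKM against 5.66 and 51.1 FPKM. Cdkn2d, an inhibitor of Cdk4 and Cdk6, had 7.35 and 19.6 FPKM against 14.3 and 16.2 FPKM, inside the range of the controls.

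Pocket proteins, E2F factors and the DREAM complex, which set cyclin transcription, had a median of -0.021, with 4 of 19 below both controls and 4 above, against 30.0% and 8.60% of all tested genes. E2f5, a repressive E2F, had 163 and 158 FPKM in the controls against 142 and 174 FPKM with siRNA. E2f4, another repressive E2F, had 15.6 and 23.3 FPKM against 22.2 and 83.2 FPKM, and the E2F partner Tfdp2 had 26.7 and 41.0 FPKM against 27.7 and 54.6 FPKM. E2f6 was listed at 0 in both siRNA libraries and stood at 2.37 and 2.07 FPKM in the controls.

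Cyclins outside the 10 genes, some of them tied to transcription or splicing, had a median of 0.41, the highest of the 7 lists, with 1 of 15 below both controls and 3 above. Ccnc, a subunit of the Mediator kinase module, had 101 and 169 FPKM in the controls against 76.4 and 40.8 FPKM with siRNA, below in both. Ccnt1, of the elongation factor P-TEFb, had 76.3 and 51.3 FPKM against 52.8 and 64.8 FPKM, and Ccnl2, tied to splicing, had 23.3 and 23.9 FPKM against 11.3 and 42.0 FPKM. Those above both controls, named after their values were seen, were Ccng1, Ccni and Ccno. Ccno had 1.99 and 0.342 FPKM against 5.05 and 34.5 FPKM, high in siRNA 2 as Ccnd3 was. The median of this list was -0.25 in siRNA 1 and 1.23 in siRNA 2.

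**Figure D5:**
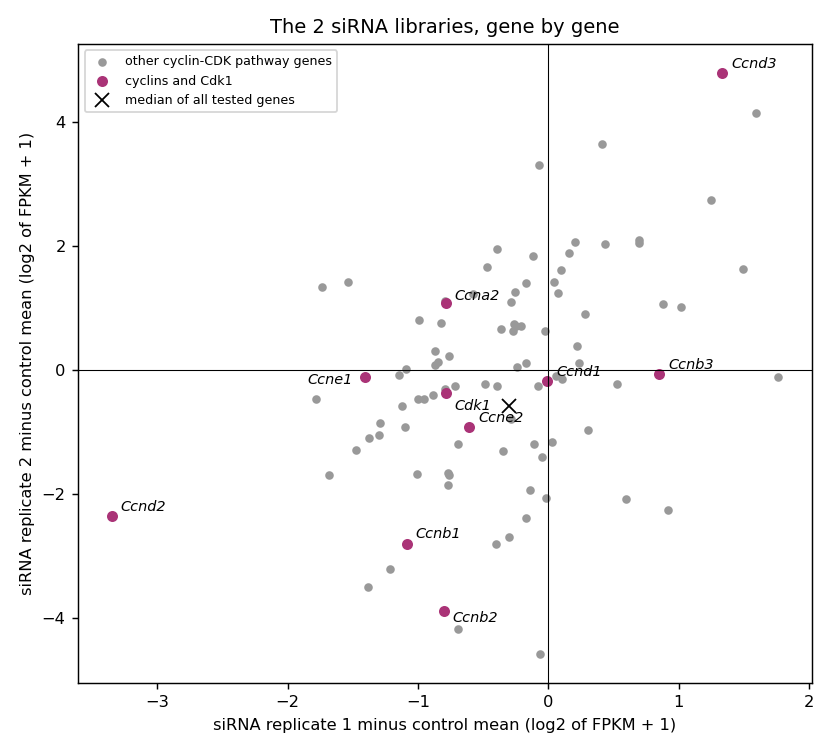
Each tested gene's difference from the control mean in siRNA 1 (x axis) and siRNA 2 (y axis), in log2(FPKM + 1), for the 10 genes and the other 86 pathway genes; the cross is the median of all tested genes. Ccnb1, Ccnb2 and Ccnd2 lie low on both axes, Ccnd3 lies high on both, and Ccna2 lies left of 0 and above it.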

How the data were processed

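Each library has 1 deposited file of FPKM values in which the authors give every gene a low and a high bound, per the file headers. Tools named in the submitters' processing notes are Cufflinks 2.2.1, Cuffdiff 2.2.1, STAR 2.7.3a, Trim Galore 0.6.5 and SAMtools 1.7, with build mm10. Which annotation release was used is not stated there. Without versions, 99.1% of gene identifiers matched GENCODE M21, the source here of transcripts, strands and overlaps. Coordinates are those of the deposited files, with starts counted from 1.

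Rows of 1 gene identifier were summed. Implied fragments (2 times FPKM divided by the distance between FPKM and high bound, squared) are unreliable for genes with many transcripts, such as Ccnd2 and Ccnd3. They cover counting error only and entered no main test. A gene was tested if 2 or more libraries reached 1 FPKM, and 2 genes with failed estimates were left out. limma 3.58.1 under R 4.3.3 was fitted two-sided to log2(FPKM + 1), with a prior variance that follows abundance, Benjamini-Hochberg adjustment over 12390 genes and a threshold of 0.05. A check of the fit on simulated data required known changes to be recovered only at a spread well below that of these data. Power at the spread of these data is not given here. Fold changes on this scale understate changes of low genes. Alternatives changed the pseudocount, filter, scaling, trend or libraries, or added a replicate block. Named genes are the 10 genes, Uqcc3, the 3 tested genes with the highest mean in each pathway list and the 4 genes most like Cdk1. The genes and lists were chosen with earlier results of these data known. Promoters are from RefSeq (GRCm38.p6).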

Additional observations from a re-analysis of the deposited data

How the results depend on the processing

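The labels carry no replicate numbers, but the names of the deposited files hold numbers that the groups share (control 2 with siRNA 1, control 1 with siRNA 2) and that no source explains. A fit with these numbers as a replicate block, added after the data were seen, called 1 gene, none of the 10, with 1028 at an unadjusted p under 0.05. Same-numbered libraries deviated from their group means with a correlation of 0.058 across genes. The number of genes passing limma was 0 in the reported fit and under each alternative pseudocount, filter, scaling and trend setting; leaving out 1 library gave 0 to 1477, and only the fit without siRNA 1 gave calls, where a lone siRNA library is assumed to vary like the controls. Over 117 refits of the 10 genes, 105 kept direction and side of the threshold, 9 turned direction and 3 newly passed (Ccnb1, Ccnb2 and Ccnd3 without siRNA 1). Ccnd1 turned to 0.0082 with a pseudocount of 0.1 FPKM, 0.21 as TPM, 0.10 under median-of-ratios size factors and 0.32 under quantile normalization, which also turned Cdk1, to 0.083. Scaling moved the median of all genes from -0.39 to -0.085, -0.084 and 0.012 in that order, and genes lower with siRNA from 64.1% to 53.0%, 53.3% and 49.5%, while those with an unadjusted p under 0.05 went from 646 lower and 92 higher to 341 and 136, 302 and 158, and 255 and 207. With 1 library left out, the log2 fold change ranged from -0.79 to 1.08 for Ccna2, -0.066 to 0.85 for Ccnb3 and -0.75 to 0.56 for Ccnd1. The share differences ranged from -1.76 to 4.66 points for Ccnb1, 56.5 to 91.4 points for Ccnd3 and -12.5 to 10.2 points for Ccne1. Counted in implied fragments, which are not per length, the Ccnb1 share differed by 11.9 points. The cause of these changes was not tested. Ccnb3, Ccnd1 and Ccnd3 could not be fitted at a filter of 5 FPKM. Values with few implied fragments, such as those of Ccnd2 and of Ccnb2 in siRNA 2 (34.2), are imprecise.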

Other observations

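Ratios between these genes within a library do not depend on scaling between libraries. They were chosen after the values were seen and have no test. Ccna2 over Ccnb1, in FPKM, was 0.403 in control 1, 0.417 in control 2, 0.504 in siRNA 1 and 6.10 in siRNA 2. Ccnb1 over Cdk1 was 1.17 and 0.915 for the controls against 0.840 and 0.191 with siRNA. Ccna2 over Cdk1 was 0.471 and 0.382 for the controls against 0.423 and 1.17 with siRNA. By these 3 ratios in FPKM, siRNA 1 lay near the controls and siRNA 2 far from them. The first follows from the others, so they are not 3 separate observations. In implied fragments, which are not per length, Ccna2 and Ccnb1 had 2242 and 1324 in siRNA 2. They had 2341 and 3723 in control 1, 2287 and 3868 in control 2, and 1497 and 2217 in siRNA 1. By both measures only siRNA 2 held more Ccna2 than Ccnb1, but by a smaller factor in implied fragments. Why the measures differ was not tested. Ccne1 over Cdk1 was 0.296 and 0.304 for the controls against 0.193 and 0.360 with siRNA, so siRNA 1 lay below the controls and siRNA 2 above. Ccng1, a p53 target, had 1.54 and 0.872 FPKM in the controls against 5.14 and 5.73 FPKM with siRNA, and Ccni had 0.523 and 1.36 FPKM against 3.50 and 11.8 FPKM. Neither passed in limma (adjusted p = 0.745 for both).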
